A study of Mus musculus with 8 samples.

Results

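The translation initiation factors were examined as a family, taken as the genes whose symbols begin with Eif1 to Eif6, leaving out the eIF2 kinases (Eif2ak symbols) and pseudogenes. The 2 deposited tables shared 62 such symbols, of which 47 had a mean normalized count of at least 10 in both tables and are reported, among 13590 genes of that level in both tables. The other 15 lay between 0.23 and 5.89, among them *Eif4a3l1*, *Eif4ebp3* and the Y-linked *Eif2s3y*, and the other 6 symbols of the rule were listed in a single table. The lowest reported member, *Eif5a2*, had a mean of 403 in the table with the 24 h libraries, so no member lay close to the limit of 10. The cells were 4T1, a mouse triple-negative breast cancer line kept in RPMI 1640 with 10% FBS under 1% O2. Groups were sdAb#07.81 (24 h), sdAb#07.81 (48 h) and sdAb-Con (48 h), with 2 libraries each, where sdAb#07.81 is a single-domain antibody (sdAb) selected from a synthetic library for binding the stress protein NUPR1 and sdAb-Con is a control sdAb. Both were purified proteins given to the cells at 0.5 μg/mL, which the study calls treatment in its results and transfection in its RNA-seq methods. Per the study they were made in human HEK293F cells as fusions with Flag and His tags and a Tat peptide for entry into cells. They also carried the C-terminal degron of ornithine decarboxylase (cOdc1), which sends a bound protein for degradation. The group Con, also of 2 libraries, was not analysed here. No sdAb-Con library at 24 h was analysed, so the change of sdAb#07.81 cells from 24 h to 48 h cannot be told apart from time in culture.

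Translation initiation brings a ribosome to the start codon of an mRNA. The eIF4F complex, made of the cap-binding protein eIF4E, the scaffold eIF4G and the helicase eIF4A, recruits the mRNA, while eIF3 and the eIF2 complex with initiator tRNA load the small ribosomal subunit, and eIF1, eIF1A and eIF5 control the choice of the start codon. The 4E-binding proteins hold eIF4E away from eIF4G unless mTORC1 phosphorylates them, and phosphorylation of eIF2 blocks its recycling by eIF2B when cells are stressed. Several initiation factor genes, that of eIF4E among them, are known MYC targets, and MYC binds the E-box CACGTG.

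Windows of 250 bases before the annotated start were available from RefSeq (GRCm38.p6) for 38 of the 47 members, and the letters CACGTG, which read the same on both strands, were present before at least 1 start of 9 of them (23.7%). These letters were held by 6.86% of all 27025 genes with a window and by 6.02% of all 32851 windows. The 27025 genes were not filtered by level as the members were, so these shares come from unlike sets of genes. The members with a match were *Eif1b*, *Eif3f*, *Eif3k*, *Eif4a1*, *Eif4e*, *Eif4g1*, *Eif4h*, *Eif5a* and *Eif5a2*. By their change from 24 h to 48 h in sdAb#07.81 cells, given further on, 3 of 6 members that rose, 3 of 14 that fell and 3 of the other 18 held a match. The windows of 2 members that rose (*Eif3f* and *Eif3k*) and of 2 that fell (*Eif4a1* and *Eif4g1*) are shown because the same letters lay before genes that moved in opposite directions, with CACGTG in capitals. They lie at chr7:108934165-108934414 (plus strand), chr7:28981889-28982138 (minus strand), chr11:69672424-69672673 (minus strand) and chr16:20672477-20672726 (plus strand), and the match begins 68, 44, 189 and 54 bases before the start, in that order.
Eif3f: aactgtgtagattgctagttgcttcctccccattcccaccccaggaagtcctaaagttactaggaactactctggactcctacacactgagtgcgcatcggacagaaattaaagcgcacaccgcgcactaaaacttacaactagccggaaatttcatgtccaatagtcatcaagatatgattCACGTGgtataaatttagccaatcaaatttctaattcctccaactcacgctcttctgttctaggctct
Eif3k: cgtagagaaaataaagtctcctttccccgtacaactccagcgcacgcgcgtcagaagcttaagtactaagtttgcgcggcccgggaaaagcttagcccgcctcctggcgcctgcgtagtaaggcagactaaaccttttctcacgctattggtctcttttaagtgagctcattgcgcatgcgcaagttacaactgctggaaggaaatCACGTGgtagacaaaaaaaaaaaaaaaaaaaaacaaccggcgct
Eif4a1: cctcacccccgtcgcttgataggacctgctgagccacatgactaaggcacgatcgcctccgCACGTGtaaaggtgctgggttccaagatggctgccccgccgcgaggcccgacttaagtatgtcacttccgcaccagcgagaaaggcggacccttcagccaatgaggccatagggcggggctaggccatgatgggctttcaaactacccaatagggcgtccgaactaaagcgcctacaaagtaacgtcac
Eif4g1: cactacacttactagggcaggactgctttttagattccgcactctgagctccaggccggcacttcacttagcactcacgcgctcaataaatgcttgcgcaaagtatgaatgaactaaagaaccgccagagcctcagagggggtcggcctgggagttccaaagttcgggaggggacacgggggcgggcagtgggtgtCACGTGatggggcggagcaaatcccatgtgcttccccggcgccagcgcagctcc

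Depth was similar across the 6 libraries, with 14643056 to 17596175 reads recovered per library. The 5 epithelial markers (*Krt8*, *Krt18*, *Epcam*, *Cdh1* and *Cldn4*) summed to between 38201 and 47599.5 normalized counts. The endothelial markers summed to at most 13.8, and of the 5 leukocyte markers *Cd68* lay between 237 and 1041 and the others at most at 4.37. *Cd68* differed by time, with 237 and 270.0 at 24 h and 500.5 or more in the 48 h libraries. Of the receptors that define triple-negative cells *Pgr* was at most 1.84, whereas *Esr1* lay between 271 and 452 and *Erbb2* between 543 and 882. Of the 4 fibroblast markers *Pdgfra* was between 609 and 655 in the 48 h libraries and at 1247 and 957 at 24 h, and the 4 together between 924 and 1363. Library a of sdAb#07.81 (24 h) stood apart in the others, with 38.2 normalized counts of *Col1a1*, 7.65 of *Col1a2* and 2.87 of *Dcn* against 197, 162 and 47.7 in library b, and the part of these markers in the members' values was not tested. In bulk RNA, fewer cells of a type and less RNA per cell cannot be told apart. *Nupr1* mRNA itself was 2919 and 2918 in sdAb#07.81 (48 h), 2999 and 3576 in sdAb-Con (48 h) and 2136 and 1556 in sdAb#07.81 (24 h). Its difference from sdAb-Con did not pass the test (log2 fold change -0.17, SE 0.136, adjusted p = 0.464).

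Levels are given as normalized counts, that is reads divided by the size factor of the library, and levels of different genes are compared per kilobase of the longest annotated transcript. Together the 47 members took 1.47% to 1.70% of the recovered reads of a library. *Eif1*, which keeps the scanning ribosome from starting at wrong codons, was the highest at 10146 normalized counts per kilobase averaged over the 6 libraries. It was followed by *Eif3h* (6781), *Eif5a* (6634), which carries the hypusine residue and aids elongation past slow codons, and *Eif4b* (5863), a cofactor of the helicase. *Eif4a1* (4475) and *Eif3a* (4445), the largest eIF3 subunit, came next and differed by less than the spread between libraries. The order was not the same in every group. At 24 h *Eif5a* (8649) was above *Eif1* (6272), and *Eif3h* (4530) was below *Eif4a1* (5682), *Eif4b* (5248) and *Eif3a* (5187), whereas *Eif1* and *Eif3h* were the highest in both 48 h groups. At the low end were *Eif5a2* (81.6), the second eIF5A gene, and *Eif2b3* (172), which codes for the gamma subunit of eIF2B. The 5 eIF2B subunits ranged from *Eif2b5* (625) down to *Eif2b3*, while 12 of the 14 eIF3 subunits were at 1192 or more. Per kilobase of the median transcript in place of the longest, *Eif1* and *Eif5a2* were again the highest and the lowest, but *Eif4g2* moved from rank 15 to rank 2.

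**Figure D1:**
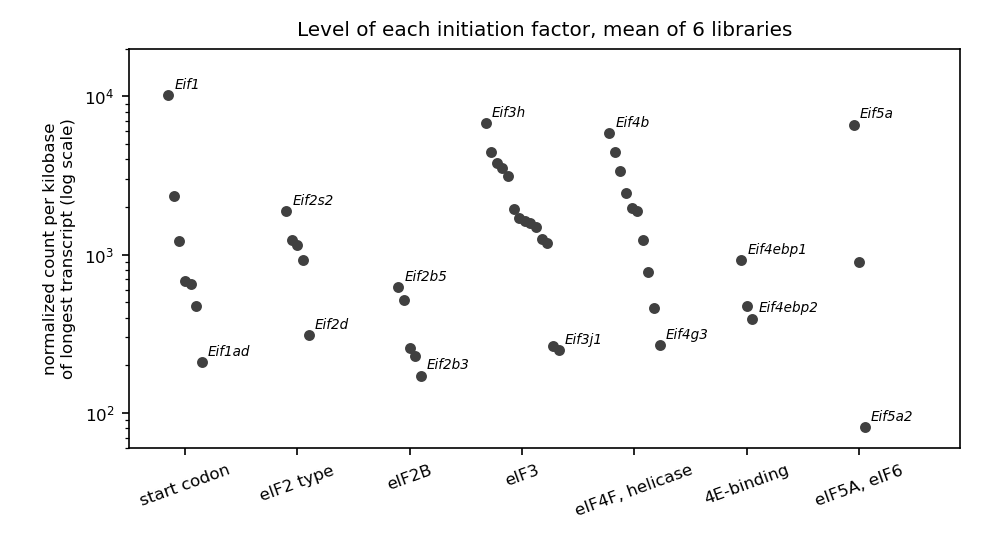
Normalized count per kilobase of the longest transcript (log axis) for each of the 47 initiation factors, averaged over the 6 libraries and placed by role. The highest and the lowest member of each role are named, from *Eif1* at 10146 to *Eif5a2* at 81.6.

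Replicate libraries of a group differed by more than sampling noise, with a mean chi-square per gene of 9.66 in sdAb#07.81 (48 h), 10.2 in sdAb-Con (48 h) and 12.0 in sdAb#07.81 (24 h), where sampling alone gives about 1. The median absolute log2 difference of the members between the libraries of a group was 0.14, 0.13 and 0.17 in the same order. The pair at 24 h was the least alike, with 39 of the 47 members higher in library b and 10 members more than 0.3 apart on the log2 scale. *Eif6*, which holds the large ribosomal subunit free of the small one, was the most uneven member. It had 1213 and 1769 normalized counts at 24 h and 1318 and 976 at 48 h of sdAb#07.81, and 1470.1 and 1392 in sdAb-Con (48 h), so the groups overlapped between the times. Its change from 24 h to 48 h did not pass the test (log2 fold change -0.37, SE 0.16, adjusted p = 0.0703).

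**Figure D2:**
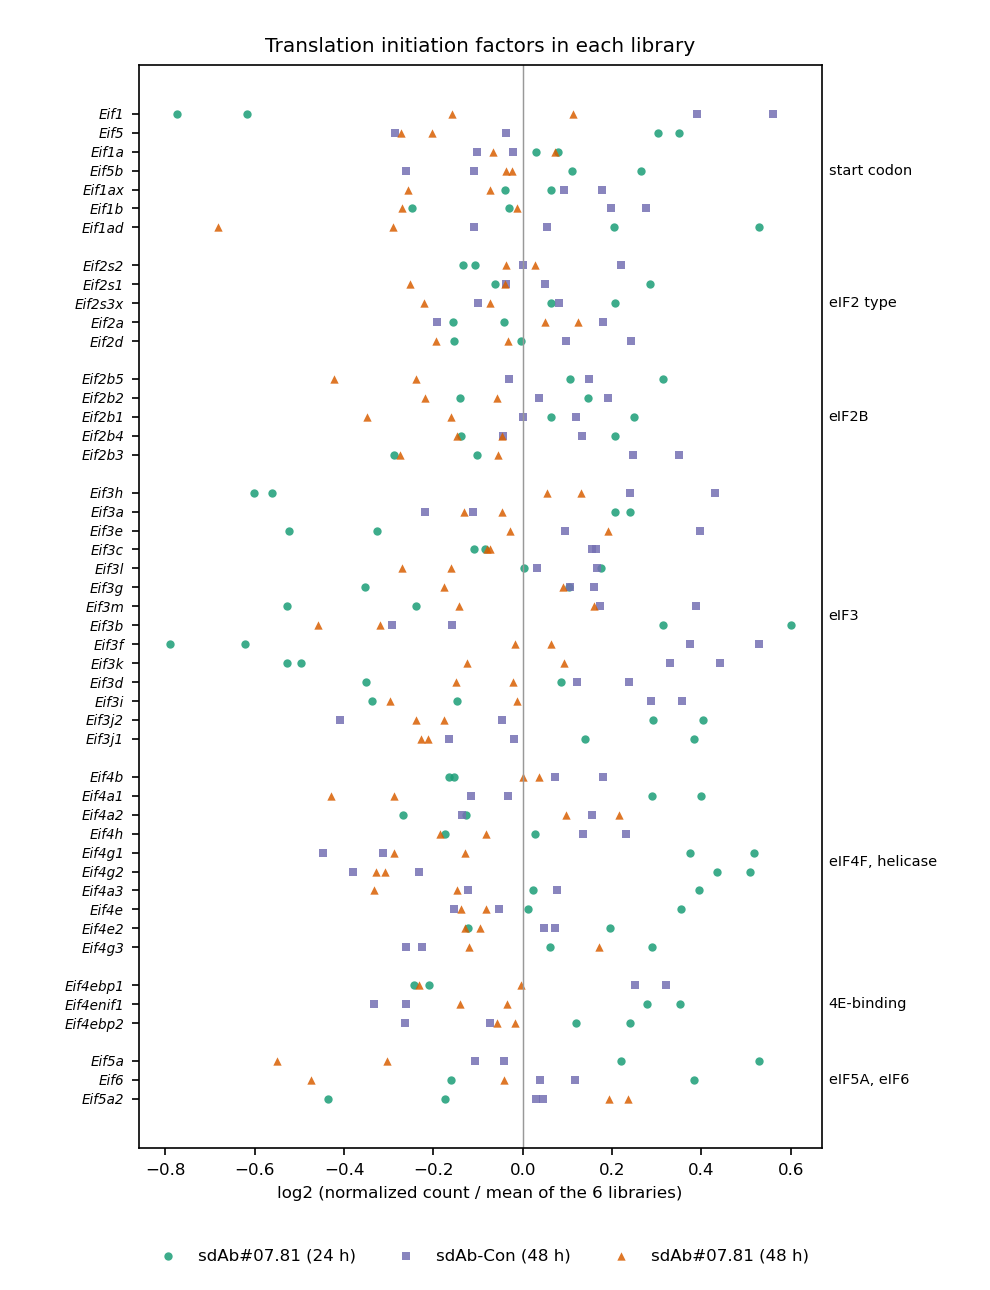
Each member in each library as log2 of its normalized count over its mean of the 6 libraries, with 2 points per group (circles sdAb#07.81 at 24 h, squares sdAb-Con at 48 h, triangles sdAb#07.81 at 48 h). *Eif1*, *Eif3f* and *Eif3h* are lowest at 24 h and highest in sdAb-Con, while *Eif4g1* and *Eif4g2* are highest at 24 h.

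The first comparison, sdAb#07.81 (48 h) against sdAb-Con (48 h), addresses what the anti-NUPR1 sdAb changed at the same time point. No member was higher and 7 of 47 (14.9%) were lower by limma's moderated test with Benjamini-Hochberg adjusted p under 0.05 over all 13590 genes, against 6.62% of all genes higher, 3.72% lower and 10.3% in either direction. The 7 were *Eif1*, *Eif3i*, *Eif2b3*, *Eif3f*, *Eif4ebp1*, *Eif3k* and *Eif2b5*, and their changes ran from -23.7% for *Eif2b5* to -29.2% for *Eif1*. The median log2 fold change of the 47 members was -0.18 and that of all genes -0.02. Both sdAb#07.81 libraries lay below both sdAb-Con libraries for 30 members, or 63.8% against 31.1% of all genes, and above them for 6 members, or 12.8% against 28.0%. The call of these 7 rested on few libraries. No member was called without library b of sdAb#07.81 (48 h) or without library b of sdAb-Con (48 h), and *Eif1* alone was called without library a of sdAb-Con (48 h), whereas 10 were called without library a of sdAb#07.81 (48 h). None was called when genes of all levels were tested, and none reached a log2 fold change of 0.58 in size.

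*Eif1* (ENSMUSG00000035530, chromosome 11 from 100210711 to 100212922 in the table, whose build is not named) fell the most. Its normalized counts were 14509 and 12026 in sdAb#07.81 (48 h) and 17585 and 19777 in sdAb-Con (48 h). The groups did not overlap, and the log2 fold change was -0.50 (95% interval -0.75 to -0.25, adjusted p = 0.0142). After an adjustment for transcript length, GC content and level, given further on, it was -0.16 and not called (adjusted p = 0.316). *Eif3i*, a WD40-repeat subunit of eIF3, had 2743 and 2255 in sdAb#07.81 against 3379 and 3546 in sdAb-Con, a log2 fold change of -0.48 (SE 0.119, adjusted p = 0.0177). *Eif3f*, a subunit that binds mTOR, had 4192 and 3959.9 against 5201 and 5783, a log2 fold change of -0.43 (SE 0.111, adjusted p = 0.0207). *Eif3k*, a small subunit at the edge of the complex, had 2847 and 2450.2 against 3355 and 3624, a log2 fold change of -0.40 (SE 0.112, adjusted p = 0.0308). In these 3 subunits every sdAb#07.81 library was below every sdAb-Con library, and 11 of the 14 eIF3 subunits showed that separation, as 31.1% of all genes did. After the adjustment *Eif3i* was still called, *Eif3f* (-0.31, adjusted p = 0.057) and *Eif3k* (-0.18, adjusted p = 0.252) were not, and *Eif3h* and *Eif3g* turned from negative to 0.07 and 0.15.

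Of the eIF2B subunits, which exchange the nucleotide on eIF2, all 5 had both sdAb#07.81 libraries below both sdAb-Con libraries (31.1% of all genes did) and 2 passed the test (3.72% of all genes did). *Eif2b3* had 623 and 535 normalized counts in sdAb#07.81 against 825 and 768 in sdAb-Con, a log2 fold change of -0.46 (SE 0.134, adjusted p = 0.035). *Eif2b5*, the catalytic subunit, had 1353 and 1191 against 1770.4 and 1563, a log2 fold change of -0.39 (SE 0.122, adjusted p = 0.0487). After the same adjustment *Eif2b5* was not called (-0.24, adjusted p = 0.189), and *Eif2b2* and *Eif2b4* were at 0.01 and 0.10. The substrate of eIF2B was not called in any subunit, and *Eif2s1*, which codes for the alpha subunit that the stress kinases phosphorylate, had 4118 and 3551 against 4121 and 4377 (log2 fold change -0.15, interval -0.41 to 0.11, adjusted p = 0.464). *Eif2s2*, the highest of the eIF2 genes, had 7872 and 7529 against 7723 and 8998, and its groups overlapped. *Eif2d*, which delivers initiator tRNA without eIF2, had 1047 and 936 against 1266 and 1144 with an adjusted p of 0.143.

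Among the 4E-binding proteins, *Eif4ebp1* (ENSMUSG00000031490) was lower with sdAb#07.81 while its paralog was not called. Its normalized counts were 1845 and 1574 in sdAb#07.81 (48 h) and 2310.4 and 2203 in sdAb-Con (48 h), a log2 fold change of -0.40 (SE 0.114, adjusted p = 0.0323). The adjusted value was -0.27 and was not called (adjusted p = 0.132). *Eif4ebp2* had 2195 and 2259 against 2171 and 1903, a log2 fold change of 0.13 with an interval of -0.10 to 0.37. *Eif4enif1*, which carries eIF4E into the nucleus and to P-bodies, had 1600.1 and 1721 against 1472 and 1399.7, a log2 fold change of 0.21 (adjusted p = 0.235). The cap-binding protein they bind, *Eif4e*, had 3663 and 3523 against 3487 and 3736, and its log2 fold change of -0.01 had an interval of -0.26 to 0.24.

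No eIF4F or helicase factor passed the test against sdAb-Con, and their median log2 fold change was -0.06. *Eif4g1*, the main scaffold, had 9125 and 10176 in sdAb#07.81 (48 h) and 8969 and 8168 in sdAb-Con (48 h) (log2 fold change 0.17, adjusted p = 0.346). *Eif4g3*, the lowest of this role, had 2003 and 2450.2 against 1861 and 1816 with an adjusted p of 0.165. *Eif4a1*, the main helicase, had 11599.6 and 10525 against 13078 and 13848, without overlap but with an adjusted p of 0.102. *Eif4b* had 22613 and 23165 against 23746 and 25610.0, and *Eif3a* 20799 and 22048 against 19570.1 and 21094, both with small differences of -0.11 and 0.08 on the log2 scale that did not pass the test. *Eif5a* had 7718 and 6511 against 9267 and 8848 (log2 fold change -0.35, adjusted p = 0.0718).

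The log2 fold change against sdAb-Con went along with transcript length. Across the 47 members the Spearman rho with the length of the longest transcript was 0.64, and across 13451 tested genes with a length it was 0.46. These are correlations across genes, which share libraries and are not replicates. The 16 shortest members (1035 to 2379 bases) had a median of -0.31 with 4 called, and the 16 longest (3712 to 8134 bases) a median of -0.01 with 1 called. Between the replicate libraries of sdAb#07.81 (48 h), the difference of library b from library a had a rho with length of 0.70 over the members and 0.38 over all genes. For the replicates of sdAb-Con (48 h) these were 0.12 and -0.08, and for those of sdAb#07.81 (24 h) -0.34 and -0.08. After the dependence on length, GC content and level across all genes was taken out, *Eif2b3* (log2 fold change -0.49, adjusted p = 0.041) and *Eif3i* (-0.38, adjusted p = 0.0396) were still called. The other 5 were not, as given above, whereas *Eif1ax*, whose reads may be shared with its near-identical copy *Eif1a*, was called there (-0.55, adjusted p = 0.00896). The median of the members was then -0.14.

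**Figure D3:**
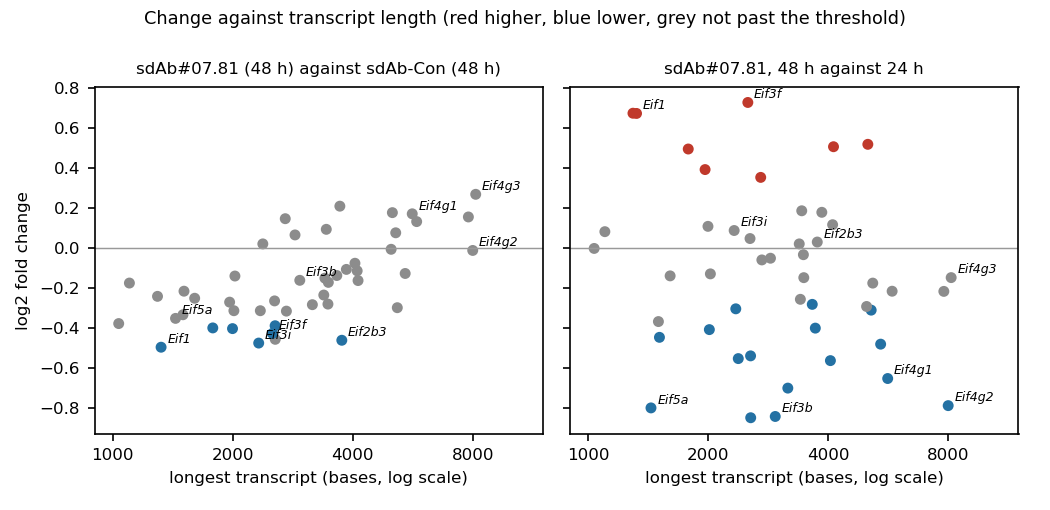
Log2 fold change of each member against the length of its longest transcript (log axis), for sdAb#07.81 (48 h) against sdAb-Con (48 h) on the left and for sdAb#07.81 at 48 h against 24 h on the right. On the left the short transcripts lie lower than the long ones (Spearman rho 0.64), and on the right rho was -0.21.

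The second comparison, sdAb#07.81 (48 h) against sdAb#07.81 (24 h), follows the treated cells over time. It shares the 48 h libraries with the first. Here 8 of 47 members were higher (17.0%, against 21.8% of all genes) and 16 were lower (34.0%, against 22.0% of all genes). Both 48 h libraries lay above both 24 h libraries for 12 members (35.6% of all genes did) and below them for 20 (36.0% of all genes did). Of the 8 that rose 5 were eIF3 subunits, and 5 other eIF3 subunits fell, so the mRNAs of the subunits did not move as a unit. Protein was not measured. All 4 called scaffold and helicase genes other than *Eif4a2* fell. The median log2 fold change was -0.15 for the members and 0.00 for all genes.

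Among the eIF3 subunits, *Eif3f* (ENSMUSG00000031029, chromosome 7 from 108533624 to 108542158 in the table) rose the most, from 2318 and 2606 normalized counts at 24 h to 4192 and 3959.9 at 48 h. This was a 1.66-fold rise (log2 fold change 0.73, SE 0.111, adjusted p = 4.07e-05). *Eif3h*, a subunit of the MPN type like eIF3f, rose from 5785 and 5948 to 9617 and 9123, or 1.60-fold (adjusted p = 7.46e-05). *Eif3e* rose from 10932 and 12538 to 17957 and 15418, or 1.42-fold (adjusted p = 0.00333). *Eif3k* rose from 1852 and 1894 to 2847 and 2450.2, or 1.41-fold (adjusted p = 0.00162), and *Eif3m* from 2326 and 2844 to 3750.2 and 3040.3, or 1.31-fold (adjusted p = 0.0201). In each of these 5 genes both 48 h libraries were above both 24 h libraries. The log2 fold change of *Eif3m* went from 0.39 to 0.24 and was not called without library a of sdAb#07.81 (48 h) (adjusted p = 0.23) or library a of sdAb#07.81 (24 h) (adjusted p = 0.193), and without the latter *Eif3e* was just short of the threshold (adjusted p = 0.0502).

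In the opposite direction, *Eif3b* (ENSMUSG00000056076), a scaffold subunit that sits by the mRNA channel, fell from 5968 and 7278 at 24 h to 3851 and 3497 at 48 h. Its log2 fold change was -0.84 (SE 0.118, adjusted p = 1.66e-05). *Eif3a* fell from 26266 and 26898 to 20799 and 22048 (log2 fold change -0.31, adjusted p = 0.0278). *Eif3j1*, the lowest eIF3 gene per kilobase, fell from 1497 and 1771 to 1159 and 1172 (log2 fold change -0.48, adjusted p = 0.00329), and so did its close copy *Eif3j2*. Reads of these near-identical genes may have been split by the counting, and their 2 values are not independent. *Eif3l* was the fifth to fall, by 0.31 on the log2 scale. *Eif3i*, with 2190.4 and 2502 at 24 h against 2743 and 2255 at 48 h, overlapped between the times.

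Of the 10 eIF4F and helicase factors 4 were called lower at 48 h, 1 was called higher and 5 were not called, where 22.0% of all genes were lower and 21.8% higher. *Eif4g1* (ENSMUSG00000045983, chromosome 16 from 20487063 to 20511634 in the table) fell from 14439 and 15933 normalized counts to 9125 and 10176 (log2 fold change -0.65, SE 0.112, adjusted p = 1.33e-04). *Eif4g2*, an eIF4G relative that lacks the eIF4E-binding site, fell from 21521 and 20446 to 12047 and 12212 (log2 fold change -0.79, SE 0.108, adjusted p = 1.42e-05). *Eif4a1* fell from 17309 and 18680.1 to 11599.6 and 10525 (log2 fold change -0.70, SE 0.11, adjusted p = 5.45e-05). Its paralog *Eif4a2* rose from 7631 and 8406 to 10669 and 9815 (log2 fold change 0.35, SE 0.118, adjusted p = 0.0212). This call was lost without library a of sdAb#07.81 (48 h) (adjusted p = 0.12) and without library a of sdAb#07.81 (24 h) (adjusted p = 0.148). *Eif4a3*, the helicase of the exon junction complex, fell by 0.45 on the log2 scale (adjusted p = 0.0101). *Eif4e* was at 3908 and 4959.5 at 24 h and at 3663 and 3523 at 48 h, and its log2 fold change of -0.29 just missed the threshold (adjusted p = 0.0542). *Eif4b* had 20299.5 and 20148 at 24 h and 22613 and 23165 at 48 h, and *Eif4g3* 2658 and 2269 against 2003 and 2450.2, and neither passed.

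Ratios of 2 genes within a library do not depend on the scaling of the libraries, and the pairs given here were chosen with their values known. There were 2.27 and 2.22 reads of *Eif4a1* per read of *Eif4a2* at 24 h, 1.56 and 1.35 in sdAb-Con (48 h) and 1.09 and 1.07 in sdAb#07.81 (48 h). The 3 groups did not overlap, and the ratio, which is not per length, was lowest in sdAb#07.81 cells at 48 h. For *Eif5a* per *Eif5a2* the ratios were 36.7 and 37.8 at 24 h, 21.9 and 21.1 in sdAb-Con and 16.4 and 13.5 in sdAb#07.81 at 48 h. Reads of *Eif4ebp1* per read of *Eif4e* were 0.40 and 0.323 at 24 h, 0.663 and 0.589 in sdAb-Con and 0.504 and 0.447 in sdAb#07.81 at 48 h, so this inhibitor-to-target ratio was highest in sdAb-Con. Reads of the other inhibitor, *Eif4ebp2*, per read of *Eif4e* overlapped in all groups, with 0.635 and 0.545 at 24 h, 0.623 and 0.509 in sdAb-Con and 0.599 and 0.641 in sdAb#07.81 at 48 h. *Eif1* per *Eif5*, factors with opposite effects on the stringency of start codon choice, was 0.725 and 0.673 at 24 h, 2.27 and 2.15 in sdAb-Con and 1.77 and 1.54 in sdAb#07.81 at 48 h. Reads of *Eif3f* per read of *Eif3b* were 0.389 and 0.358 at 24 h, 1.21 and 1.48 in sdAb-Con and 1.09 and 1.13 in sdAb#07.81 at 48 h. The scaffold pair did not separate the groups, with 0.671 and 0.779 reads of *Eif4g1* per read of *Eif4g2* at 24 h, 0.772 and 0.634 in sdAb-Con and 0.757 and 0.833 in sdAb#07.81 at 48 h. After the dependence on length, GC content and level was taken out, the log2 fold changes against sdAb-Con (48 h) differed by less than 0.1 within 3 of the pairs. They were -0.02 for *Eif5a* and -0.09 for *Eif5a2*, -0.27 for *Eif4ebp1* and -0.23 for *Eif4e*, and -0.16 for *Eif1* and -0.17 for *Eif5*. For the helicase pair they were -0.18 for *Eif4a1* and 0.12 for *Eif4a2*, neither called. The other pairs stood further apart, with -0.31 for *Eif3f* and -0.01 for *Eif3b*, 0.19 for *Eif4g1* and -0.22 for *Eif4g2*, and 0.05 for *Eif4ebp2*, none of them called. Between 24 h and 48 h of sdAb#07.81 the same adjustment left -0.76 for *Eif4a1* and 0.27 for *Eif4a2*, -0.95 for *Eif5a* and 0.60 for *Eif5a2*, and 0.53 for *Eif1* and -0.60 for *Eif5*. It left 0.65 for *Eif3f* and -0.91 for *Eif3b*, 0.03 for *Eif4ebp1*, -0.18 for *Eif4ebp2* and -0.29 for *Eif4e*, and -0.65 for *Eif4g1* and -0.73 for *Eif4g2*.

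**Figure D4:**
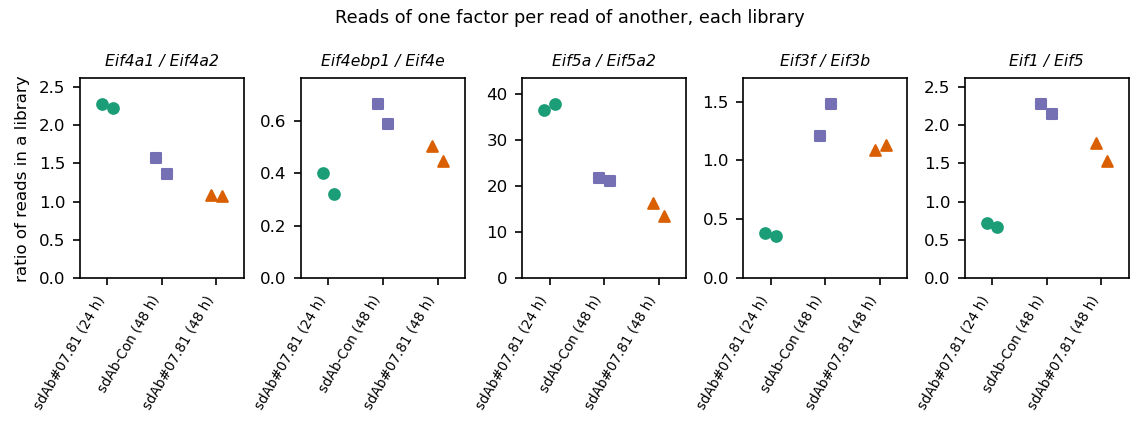
Ratio of the reads of 2 initiation factors within each library (linear axes from 0), with 2 points per group. *Eif4a1* per *Eif4a2* and *Eif5a* per *Eif5a2* are highest at 24 h and lowest in sdAb#07.81 at 48 h, and *Eif1* per *Eif5* is lowest at 24 h, at 0.725 and 0.673.

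Of the 7 start codon factors 1 was called higher and 2 lower, shares near those of all genes given above. *Eif1* rose from 8738 and 7845 at 24 h to 14509 and 12026 at 48 h, or 1.60-fold (log2 fold change 0.67, SE 0.12, adjusted p = 1.93e-04). *Eif5*, the GTPase-activating protein of eIF2, fell from 12057 and 11663 to 8211 and 7827 (log2 fold change -0.56, SE 0.112, adjusted p = 5.40e-04). *Eif1ad*, which codes for an eIF1A-domain protein and was the lowest of this role, fell from 619 and 775 to 439.7 and 335 (log2 fold change -0.85, SE 0.157, adjusted p = 2.71e-04). The other 4 genes of this role, *Eif1a*, *Eif1ax*, *Eif1b* and *Eif5b*, were not called between the times.

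*Eif5a* fell from 11109 and 13747 to 7718 and 6511 (log2 fold change -0.80, SE 0.123, adjusted p = 4.45e-05), while *Eif5a2* rose from 303 and 364 to 469 and 483 (log2 fold change 0.52, SE 0.144, adjusted p = 0.00692). *Eif2b5* fell from 1718 and 1985 to 1353 and 1191 (log2 fold change -0.54, SE 0.122, adjusted p = 0.00155), and *Eif2b1* was also called lower. *Eif2b3* had 531 and 603 at 24 h and 623 and 535 at 48 h, which overlapped. Of the eIF2 genes *Eif2s3x* alone was called (log2 fold change -0.28, adjusted p = 0.0494), before the adjustment for length, GC content and level. *Eif2s1* had 4054 and 5155 at 24 h (adjusted p = 0.101), *Eif2s2* 7171 and 7034 (adjusted p = 0.412) and *Eif2d* 963 and 1067 (adjusted p = 0.844). *Eif4ebp1* had 1563 and 1599.6 at 24 h and *Eif4ebp2* 2481 and 2701, and neither passed the test, with adjusted p of 0.466 and 0.126. *Eif4enif1* fell from 2137 and 2251 to 1600.1 and 1721 (log2 fold change -0.40, adjusted p = 0.00661).

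Of the 24 members called between 24 h and 48 h, 14 were called in every one of 10 alternative fits, the fold limit aside, among them *Eif1*, *Eif3f*, *Eif3h* and *Eif3k* of those that rose and *Eif3b*, *Eif4a1*, *Eif4g1*, *Eif4g2*, *Eif5* and *Eif5a* of those that fell. The fit with the dependence on length, GC content and level taken out also called *Eif2s1* (-0.30, adjusted p = 0.0348), *Eif4e* (-0.29, adjusted p = 0.0373) and *Eif6* (-0.45, adjusted p = 0.0145) lower. All 24 were called there too. The other 10 were not called in at least 1 of these fits, namely *Eif3e*, *Eif3m*, *Eif4a2* and *Eif5a2* of those that rose and *Eif2b1*, *Eif2s3x*, *Eif3a*, *Eif3l*, *Eif4a3* and *Eif4enif1* of those that fell. Without library a of sdAb#07.81 (24 h), the one low in *Col1a1*, *Col1a2* and *Dcn*, 4 members rose and 18 fell.

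**Figure D5:**
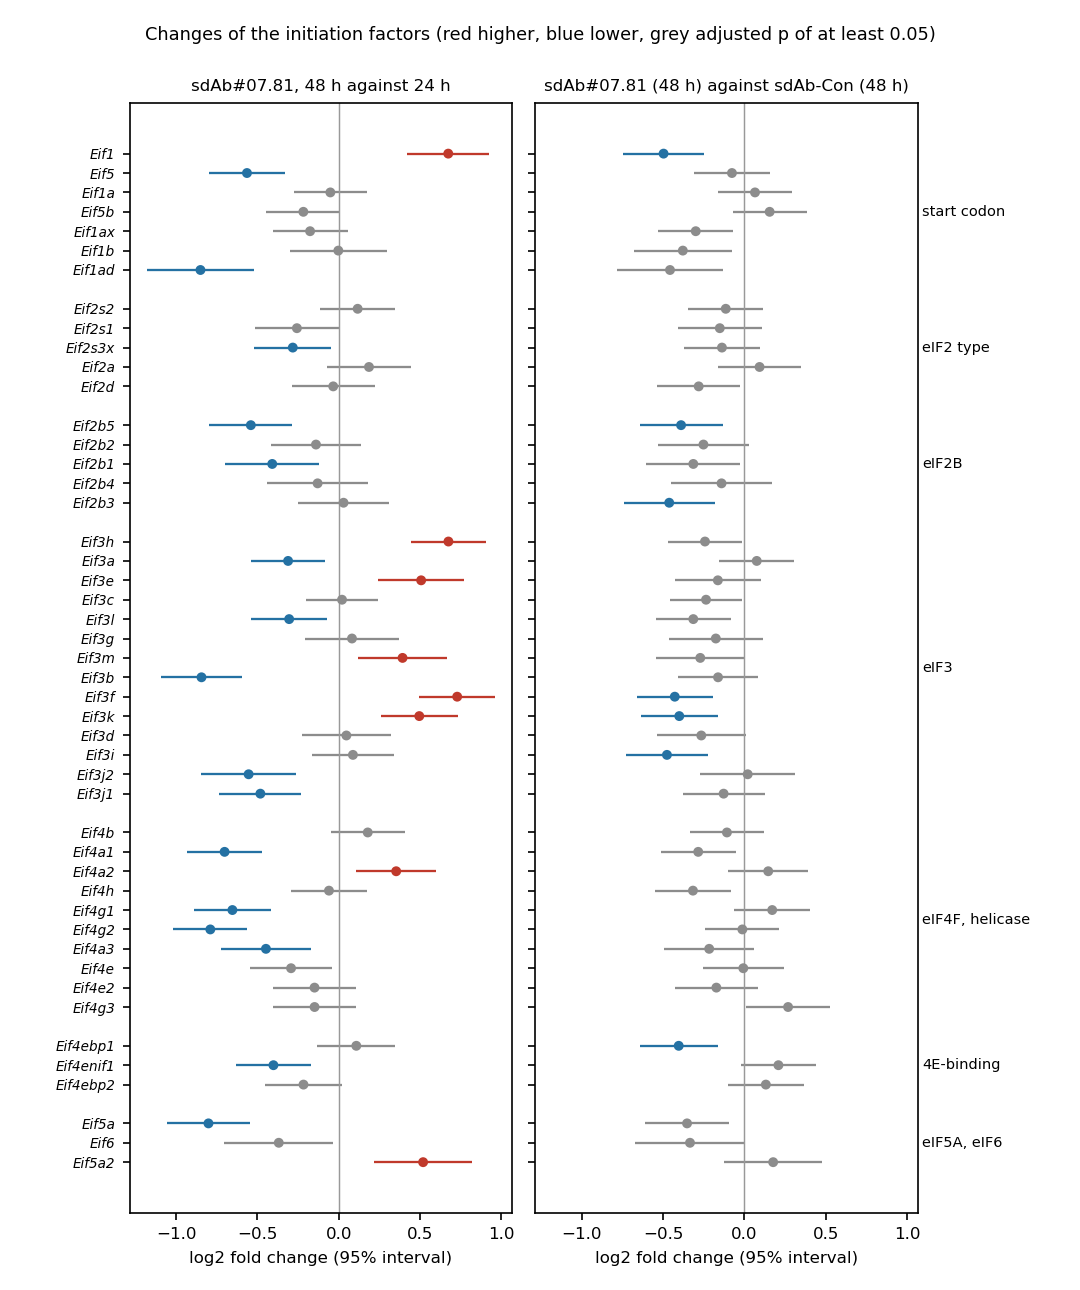
Log2 fold change of each member with its 95% interval, for sdAb#07.81 at 48 h against 24 h on the left and for sdAb#07.81 (48 h) against sdAb-Con (48 h) on the right (red higher, blue lower, grey adjusted p of at least 0.05). On the left 8 members are red and 16 blue, and on the right 7 are blue and none is red.

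The remaining pair of groups, sdAb-Con (48 h) against sdAb#07.81 (24 h), differs in antibody and time at once, which cannot be told apart, and shares its libraries with both comparisons above. In it 12 members were higher and 14 were lower, against 25.5% and 25.6% of all genes and 51.1% in either direction, and the members' median log2 fold change was 0.01. The libraries did not overlap for 19 members that were higher and 16 that were lower, against 37.5% and 37.2% of all genes. Without library b of sdAb#07.81 (24 h) 14 were higher and 8 lower. *Eif1* was 2.25-fold higher in sdAb-Con (48 h) (log2 fold change 1.17, SE 0.12, adjusted p = 3.82e-07). *Eif3f* was 2.23-fold higher (adjusted p = 1.79e-07), *Eif3h* 1.89-fold (adjusted p = 1.91e-06), *Eif3k* 1.86-fold (adjusted p = 3.52e-06), *Eif3e* 1.59-fold (adjusted p = 2.53e-04) and *Eif3m* 1.58-fold (adjusted p = 3.51e-04). For the last 2 of these, sdAb-Con (48 h) had 16790.4 and 20686 normalized counts of *Eif3e* and 3785 and 4391 of *Eif3m*, and *Eif3h* had 10374 and 11839 there. *Eif4g1* (log2 fold change -0.83), *Eif4g2* (-0.78), *Eif3b* (-0.68) and *Eif4enif1* (-0.61) were the largest falls. The sdAb-Con (48 h) libraries had 11623 and 12881 of *Eif4g2*, 4303 and 3919 of *Eif3b*, 558 and 498 of *Eif1ad*, 7755 and 9218 of *Eif5* and 1212 and 1339 of *Eif3j1*. They had 8362 and 10222 of *Eif4a2* and 423 and 419 of *Eif5a2*, which were not called in this comparison. *Eif4ebp1* was 1.43-fold higher in sdAb-Con (48 h) than at 24 h of sdAb#07.81 (adjusted p = 0.00112). These differences also went along with transcript length, with a rho of -0.43 over the members and -0.34 over all genes. After the dependence on length, GC content and level was taken out, 20 of the 26 members were still called and 7 others were called as well. *Eif1b* turned from 0.38 to -0.02 and lost its call, *Eif5a* went from -0.45 to -0.93, and several changes were over 1.5 times smaller. The log2 fold change was then 0.69 for *Eif1*, 0.46 for *Eif3h*, 0.58 for *Eif3k*, 0.30 for *Eif4ebp1* and -0.50 for *Eif4g2*, all still called.

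Other genes of the pathway were taken from lists chosen with earlier results of these data known. Of 18 regulators of initiation 17 could be tested, and against sdAb-Con (48 h) 1 was higher and none lower, where 6.62% of all genes were higher. It was *Eif2ak2*, which codes for PKR, the eIF2 kinase activated by double-stranded RNA. Its normalized counts were 4171 and 3643 in sdAb#07.81 (48 h), 2171 and 2289.8 in sdAb-Con (48 h) and 1605 and 1425 in sdAb#07.81 (24 h). The log2 fold change was 0.81 against sdAb-Con (SE 0.114, adjusted p = 4.71e-04) and 1.37 between the times (adjusted p = 4.15e-08). The kinases *Eif2ak1*, *Eif2ak3* and *Eif2ak4* were not called against sdAb-Con, with adjusted p of 0.876, 0.851 and 0.357.

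Between 24 h and 48 h of sdAb#07.81, 8 of the 17 regulators rose and 5 fell, where 21.8% of all genes rose and 22.0% fell. *Ppp1r15a* (GADD34), the phosphatase subunit that restores eIF2 after stress, rose by 1.55 on the log2 scale (adjusted p = 1.08e-06), and *Pdcd4*, an inhibitor of eIF4A, by 0.97 (adjusted p = 3.22e-06). The eIF4E kinase gene *Mknk2* rose by 0.88 (adjusted p = 4.01e-06). The helicase gene *Ddx3x* had a log2 fold change of -1.01 (adjusted p = 9.87e-07) and *Larp1*, which represses mRNAs with a 5' terminal oligopyrimidine tract, of -0.46 (adjusted p = 0.00281). These genes were called in the same direction in sdAb-Con (48 h) against sdAb#07.81 (24 h). The log2 fold changes there were 2.05 for *Ppp1r15a*, 0.91 for *Pdcd4*, 0.82 for *Mknk2*, -1.03 for *Ddx3x* and -0.71 for *Larp1*. Of 8 elongation and termination factors 6 could be tested. Against sdAb-Con 3 were lower (3.72% of all genes were), all of them eEF1 subunits, namely *Eef1g* (log2 fold change -0.47, adjusted p = 0.0159), *Eef1b2* (-0.43, adjusted p = 0.0269) and *Eef1d* (-0.39, adjusted p = 0.0468). Their longest transcripts had 1864, 1939 and 2856 bases, in that order. Whether these 3 calls hold after the adjustment for length, GC content and level, or without 1 library, was not tested. From 24 h to 48 h *Eef1b2* (0.60) and *Eef1g* (0.46) rose, and the termination factor genes *Etf1* (-0.42) and *Gspt1* (-0.31) fell, all with adjusted p under 0.05, so that 2 of 6 moved each way. In sdAb-Con (48 h) against sdAb#07.81 (24 h) the same genes were called in the same direction (1.03, 0.93, -0.47 and -0.45, in that order). Reads of *Pabpc1*, *Eef1a1* and *Eef2* could not be recovered for single libraries and these genes were not tested.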

How the data were processed

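The authors sequenced the RNA of 4T1 cells as 8 libraries. Per the labels' processing notes the tools were cutadapt 1.9.1, HISAT2 2.0.1 and HTSeq 0.6.1, with a human assembly named as the build although the gene identifiers are mouse, so table coordinates are given without a build. For each gene of 2 comparisons the authors deposited a signal, the mean over 4 libraries of read counts divided by size factors (columns named as in DESeq2 results). The authors' own fold changes, standard errors, statistics and p-values were not used.

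Whole reads per library were recovered from the printed digits of the means. Genes with a single read gave the weight of each library, and the weights shared by both tables marked the sdAb#07.81 (48 h) libraries. A whole-number solution fitting both tables was found for 28673 of 28712 genes (99.9%). The 39 others were left out, 13.6% and 10.9% of the summed means. Size factors recomputed from the recovered reads differed from the weights by at most 0.0517%. The recovery and the test were checked on simulated data. Libraries a and b of a group are named by size factor, since the tables carry no replicate numbers.

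Log2 CPM (pseudocount 0.5 reads, size factors by median of ratios) of the 13590 genes with a mean of at least 10 in both tables were fitted with limma 3.58.1 (R 4.3.3, trend, 3 groups in 1 fit). Fold changes are on that scale, p-values are two-sided and Benjamini-Hochberg adjusted, and the threshold was 0.05. The labels do not say that libraries came from separate cultures, so p-values measure only the spread between these libraries. Python 3.11.15 was used elsewhere (scipy 1.17.1, pandas 2.3.3, numpy 2.4.6) and matplotlib 3.10.9 for the plots. Transcript length and GC content came from GENCODE M21 for 99.0% of tested genes.

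Members, lists and pathway genes were chosen with earlier results of these data known. Library values are given for the 10 members with the largest called change in each comparison, for 12 fixed members (Eif4ebp1, Eif4ebp2, Eif4e, Eif4g1, Eif4a1, Eif4a2, Eif2s1, Eif2b5, Eif3a, Eif5a, Eif6, Eif1) and for the highest and lowest member of each role. Alternatives were another scaling, pseudocount, filter, fold limit and set of groups, taking out the dependence on length, GC content and level (polynomials of degree 3), and leaving out each library.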

Additional observations from a re-analysis of the deposited data

How the results depend on the processing

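With 2 libraries per group the counts of called members depend on single libraries. Against sdAb-Con (48 h), the 7 lower members became 0 with no filter on low counts, 3 after the dependence on length, GC content and level was taken out and 0 when an absolute log2 change of 0.58 was also required, and ranged from 0 to 10 when 1 library was left out, with 0 members higher throughout. For 48 h against 24 h of sdAb#07.81 the fold limit left 3 higher and 6 lower, and leaving out 1 library gave 4 to 8 higher and 11 to 18 lower. For sdAb-Con (48 h) against sdAb#07.81 (24 h) the fold limit left 6 higher and 4 lower, and leaving out 1 library gave 9 to 14 higher and 8 to 15 lower. The cause was not tested, except that the fold limit lowers the counts by construction. Scaling by total reads, a pseudocount of 2, a mean of at least 100 and a fit of only the 2 groups left all counts within 1.5 times. Of the called members *Eif1b* changed direction after the dependence on length, GC content and level was taken out, from 0.38 to -0.02 in sdAb-Con (48 h) against sdAb#07.81 (24 h). No called change of the members given with library values turned under any of the 10 alternative fits. Changes that were not called could turn with that dependence taken out. Against sdAb-Con (48 h), *Eif3h* went from -0.24 to 0.07, *Eif4b* from -0.11 to 0.07 and *Eif5a2* from 0.18 to -0.09. No paired analysis was possible because the deposited means carry no replicate numbers. A minimum mean of 1 or 100 kept 55 or 47 members.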
